A study of Homo sapiens with 9 samples.

Results

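Among the BCL2 family genes listed here, BAX differed most between growth states of Rh30 rhabdomyosarcoma cells. It is 1 of the 2 listed genes whose proteins open pores in the outer mitochondrial membrane. Its RNA was 3.66-fold lower in spheres than in adherent cells, and the difference between xenografts and adherent cells lay within the spread between arrays. The genes described are BCL2, BCL2L1, MCL1, BAX, BAK1, BBC3, PMAIP1, BCL2L11, BMF and BIK, listed by name. They were measured through every probe set, a group of short probes for 1 transcript, to which the annotation of the array gives the symbol of 1 of these genes alone. Of 54613 probe sets tested, 28 met this rule, and they stand for 9 of the 10 listed genes. BCL2L11 had 7 probe sets, MCL1 had 6, BCL2 and BCL2L1 had 4 each, BAX and PMAIP1 had 2 each, and BAK1, BMF and BIK had 1 each. The probe set listed for BBC3 is shared with the microRNA genes MIR3190 and MIR3191, so BBC3 had 0 probe sets of its own and is given apart from the rest.

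Proteins of the BCL2 family decide whether the outer membrane of the mitochondrion stays closed. The survival proteins BCL2, BCL-XL (encoded by BCL2L1) and MCL1 hold the pore formers BAX and BAK1 in check, and the BH3-only proteins PUMA (BBC3), NOXA (PMAIP1), BIM (BCL2L11), BMF and BIK bind the survival proteins or the pore formers and so release the pore. Once it opens, cytochrome c leaves the mitochondrion and the caspases, the proteases of apoptosis, are switched on. Much of this balance is set on the proteins, by binding, phosphorylation and degradation, which RNA arrays do not see.

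The samples were 3 arrays of spheres, 3 of xenografts and 3 of adherent cells, all of Rh30, an established cell line of fusion-positive rhabdomyosarcoma (FP-RMS) that carries the PAX3-FOXO1 fusion, and per the methods the 3 of each group are biological replicates. Spheres were floating clusters collected after 48 h in Neurobasal medium to which insulin at 50 µg/ml, bFGF at 80 ng/ml, EGF at 40 ng/ml and 1X B27 had been added. The xenografts grew in immunodeficient SCID/beige mice. The methods describe them as orthotopic tumors from 1000000 adherent cells placed in the left gastrocnemius, whereas the labels speak of cells in Matrigel under the skin of the flank, from adherent or sphere cultures, so the route stays uncertain. Adherent cells grew as a monolayer in RPMI with serum. All groups carry the same fusion and come from 1 line, and spheres differ from adherent cells in medium as well as in attachment, so these cannot be told apart.

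The values were log2 probe set intensities after RMA normalization, and 1 unit is a doubling. Replicate arrays correlated at 0.990 to 0.998 over all probe sets, and array medians lay between 4.78 and 4.87. The upper quartile was 6.88 to 6.89 in xenograft arrays, 7.05 to 7.09 in sphere arrays and 7.02 to 7.06 in adherent arrays. Muscle lineage markers averaged 8.03 to 8.12 in spheres, 8.17 to 8.36 in xenografts and 8.39 to 8.47 in adherent cells, with MYF5 and MYF6 below the array median in every group. The signal of 3 prime over 5 prime ACTB probe sets, which grows as RNA is shortened, was 3.20 ± 0.09 in spheres, 2.48 ± 0.23 in xenografts and 2.39 ± 0.30 in adherent cells (log2, SD, n = 3 each). Every sphere array lay above every adherent and every xenograft array (two-sided exact permutation test, p = 0.1 against either group, and 3 against 3 arrays can give no smaller value). The same difference for GAPDH was 0.62 ± 0.05 in spheres, 0.53 ± 0.11 in xenografts and 0.54 ± 0.13 in adherent cells. The poly-A control probe sets, which read bacterial transcripts used as labelling controls, averaged 6.59 ± 0.16 in spheres, 7.37 ± 0.36 in xenografts and 6.76 ± 0.15 in adherent cells, with every xenograft array above all others (exact permutation p = 0.1 against either group). Markers of adult skeletal muscle averaged 5.28 to 5.45 in xenografts and 4.29 to 4.36 in adherent cells, fibroblast markers 5.99 to 6.90 and 5.37 to 5.52, and leukocyte markers 4.03 to 4.16 and 3.79 to 3.95, with 6 of 7 leukocyte markers below the array median in every group. Mouse RNA reaches these human probes only by cross-hybridisation. The part of RNA quality, of labelling and of host cells in the member values was not tested. In bulk RNA, fewer cells that express a gene and less RNA per cell cannot be told apart.

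The bases upstream of BAX, BCL2L11 and PMAIP1 are shown because these 3 genes had the largest range between group means at their brightest probe sets. For BCL2L11 other probe sets did not share the change in spheres, as given below. Each sequence is the 250 bases before the RefSeq start of the gene, read along the gene, in build GRCh38.p14. Capitals mark CACGTG in BAX, the core bound by basic helix-loop-helix factors such as MYC. In BCL2L11 they mark GTAAACA, the core bound by FOXO factors, and in PMAIP1 they mark the opposite-strand copy of TGACGT, the core of the element that CREB and ATF factors bind.
BAX, chr19:48954625-48954874, plus strand: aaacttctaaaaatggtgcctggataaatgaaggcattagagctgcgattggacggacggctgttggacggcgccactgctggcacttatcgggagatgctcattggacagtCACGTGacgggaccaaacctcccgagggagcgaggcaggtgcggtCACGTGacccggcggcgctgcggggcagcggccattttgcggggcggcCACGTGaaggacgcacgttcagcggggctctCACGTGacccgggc
BCL2L11, chr2:111120664-111120913, plus strand: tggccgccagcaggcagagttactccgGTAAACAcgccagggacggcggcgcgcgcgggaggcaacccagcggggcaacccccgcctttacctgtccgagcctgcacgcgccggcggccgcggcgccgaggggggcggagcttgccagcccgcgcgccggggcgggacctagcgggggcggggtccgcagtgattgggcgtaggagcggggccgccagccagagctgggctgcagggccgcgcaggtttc
PMAIP1, chr18:59899746-59899995, plus strand: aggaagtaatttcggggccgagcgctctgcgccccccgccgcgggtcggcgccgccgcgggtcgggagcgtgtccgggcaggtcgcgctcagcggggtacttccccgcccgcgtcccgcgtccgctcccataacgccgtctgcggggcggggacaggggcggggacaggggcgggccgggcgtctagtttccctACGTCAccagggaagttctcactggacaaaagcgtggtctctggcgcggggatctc

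Both strands of these windows were searched for 7 motifs. These were TGACGTCA as the cyclic AMP response element, TGATGCAA as the core that CHOP and ATF4 share, GTAAACA for FOXO factors, CANNTG as the E-box, ACGTG as the core of the hypoxia response element, TATAAA as the TATA box, and a single decamer of the p53 response element, which is made of a pair of such decamers. The letters CACGTG and TGACGT, parts or forms of the others, were added after the windows had been read. BAX held 4 copies of CACGTG, at -138, -93, -45 and -14 from the gene start. Of 35116 RefSeq windows of the same length, 6.34% held CACGTG at all and 5 windows (0.0142%) held at least as many copies. These copies are also counted among its 5 matches to CANNTG (0.888% of windows had as many) and its 9 matches to ACGTG (0.0114%), since each CACGTG holds ACGTG on either strand. BCL2L11 held 1 GTAAACA at -223 (2.98% of windows), and PMAIP1 held no TGACGTCA, which is in 1.65% of windows, but 1 TGACGT at -56 (7.10%). In all, 8 listed genes had a window. A match is a stretch of letters and was not measured as a binding site.

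**Figure D1:**
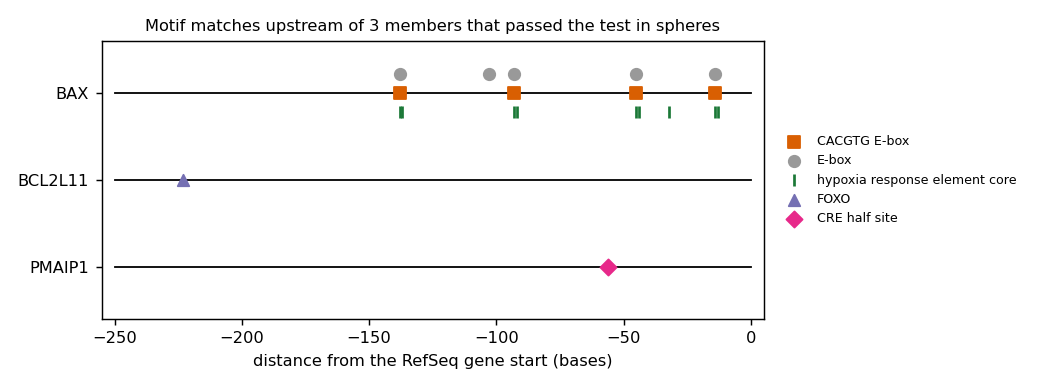
Positions of motif matches in the 250 bases upstream of BAX, BCL2L11 and PMAIP1, with the distance from the RefSeq gene start in bases on the x axis and 1 line per gene. BAX holds 4 CACGTG copies between -138 and -14, BCL2L11 a single FOXO core at -223 and PMAIP1 a single CRE core at -56.

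Whether growth as spheres changed the survival and death genes was asked first. In spheres, RNA of BAX and BMF was lower and RNA of PMAIP1 higher than in adherent cells. BCL2L11 was lower at 225606_at alone of its 7 probe sets. No probe set of BCL2, BCL2L1, MCL1, BAK1 or BIK passed the test (limma, p adjusted over all probe sets, under 0.05). Of the 28 probe sets, 2 rose, both of PMAIP1, and 4 fell, 2 of them of BAX. Of all probe sets, 13.3% rose and 12.6% fell, so these counts lie near the background. Sphere and adherent arrays did not overlap at 12 of the 28 probe sets, against 41.6% of all probe sets. With each gene taken at its brightest probe set, 1 of 9 genes rose and 3 of 9 fell, against 13.5% and 16.3% of 19775 genes. The median change of the 9 genes was -0.06, against -0.04 for all genes. Without the _x_at and _s_at probe sets, which can match several transcripts, 2 member probe sets still passed. With array weights 12 did, but the share of all probe sets at that setting is not given here. That count is therefore not to be read against 13.3% and 12.6%.

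**Figure D2:**
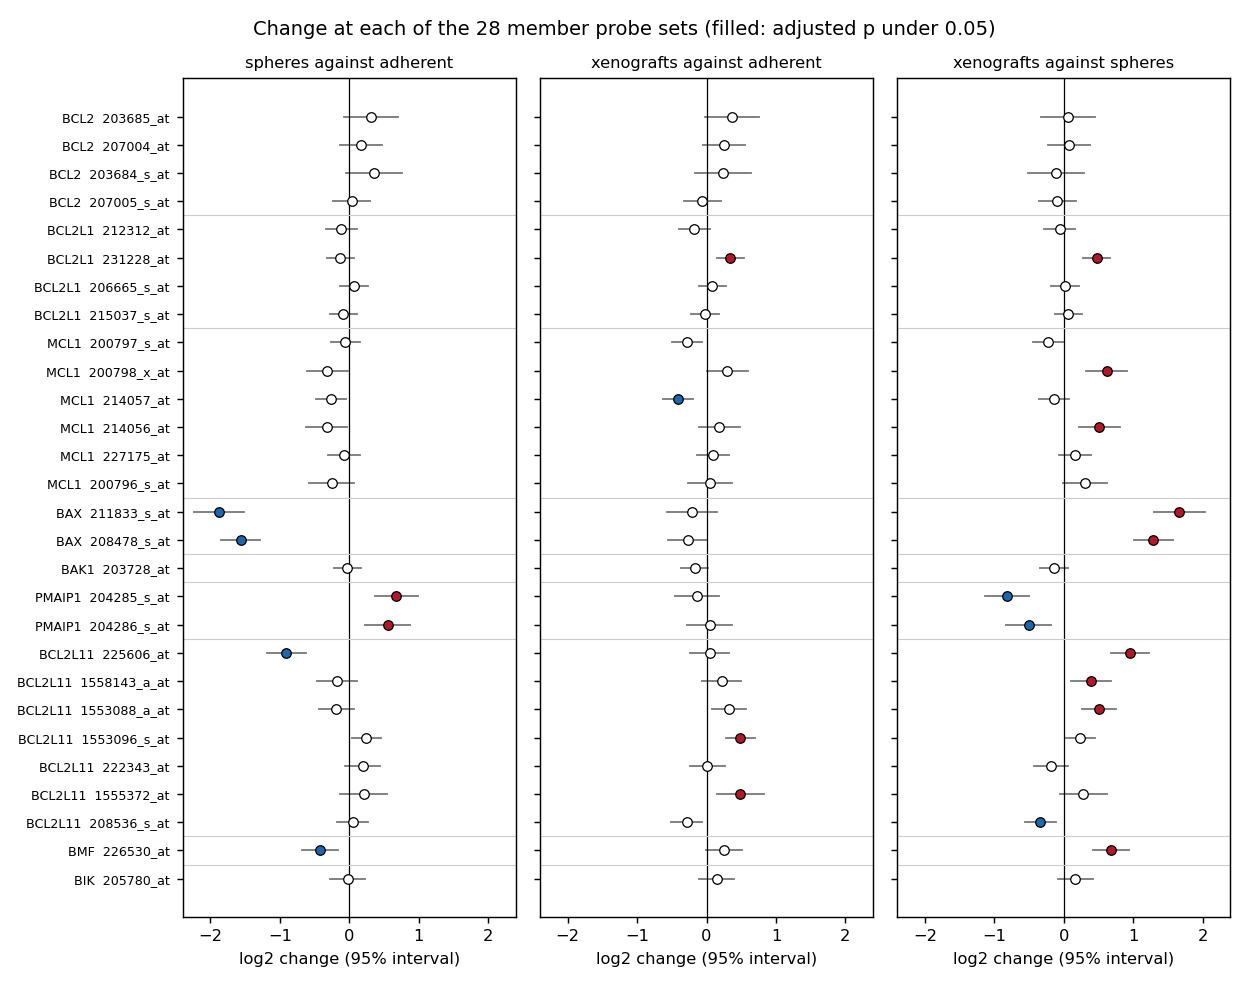
Log2 change at each of the 28 member probe sets in the 3 comparisons, with the 95% interval from limma as a line, red for a probe set that rose, blue for one that fell and open for one that did not pass the test. Both BAX probe sets lie below -1.5 in spheres against adherent cells, and the BCL2 probe sets span 0 in every comparison.

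BAX forms the membrane pore together with or in place of BAK1. Its brighter probe set, 211833_s_at, read 6.82, 6.42 and 6.81 in spheres, 8.03, 8.68 and 8.34 in xenografts and 8.70, 8.40 and 8.56 in adherent cells. All sphere arrays lay more than 1 log2 unit below every other array, and the xenograft and adherent arrays overlapped. The change in spheres against adherent cells was -1.87 (SE 0.16, 95% interval -2.23 to -1.51, adjusted p = 7.5e-06). The other BAX probe set, 208478_s_at, read 5.60, 5.75 and 5.88 in spheres, 6.80, 7.14 and 7.16 in xenografts and 7.46, 7.12 and 7.35 in adherent cells. It fell by 1.56 in spheres against adherent cells (SE 0.13, adjusted p = 4.9e-06), so both probe sets gave the same order of levels, with spheres lowest. Both are of the _s_at type. The call at 211833_s_at held under all 20 alternatives tried and that at 208478_s_at under all 19. Leaving out the _x_at and _s_at types removes every probe set of BAX and of PMAIP1, so that setting does not test them, and the member probe sets it still called in spheres were BCL2L11 225606_at and BMF 226530_at.

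BAK1, the other pore former among the listed genes, had no such pattern. Its probe set 203728_at read 6.88, 6.87 and 6.90 in spheres, 6.88, 6.69 and 6.67 in xenografts and 6.92, 6.94 and 6.88 in adherent cells. The change in spheres against adherent cells was -0.03, with a 95% interval of -0.23 to 0.17 (adjusted p = 0.87), which leaves out a change of the size seen for BAX. Sphere arrays overlapped those of both other groups. Between xenografts and adherent cells, the highest xenograft array equalled the lowest adherent array (6.88), and the groups shared no other values.

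**Figure D3:**
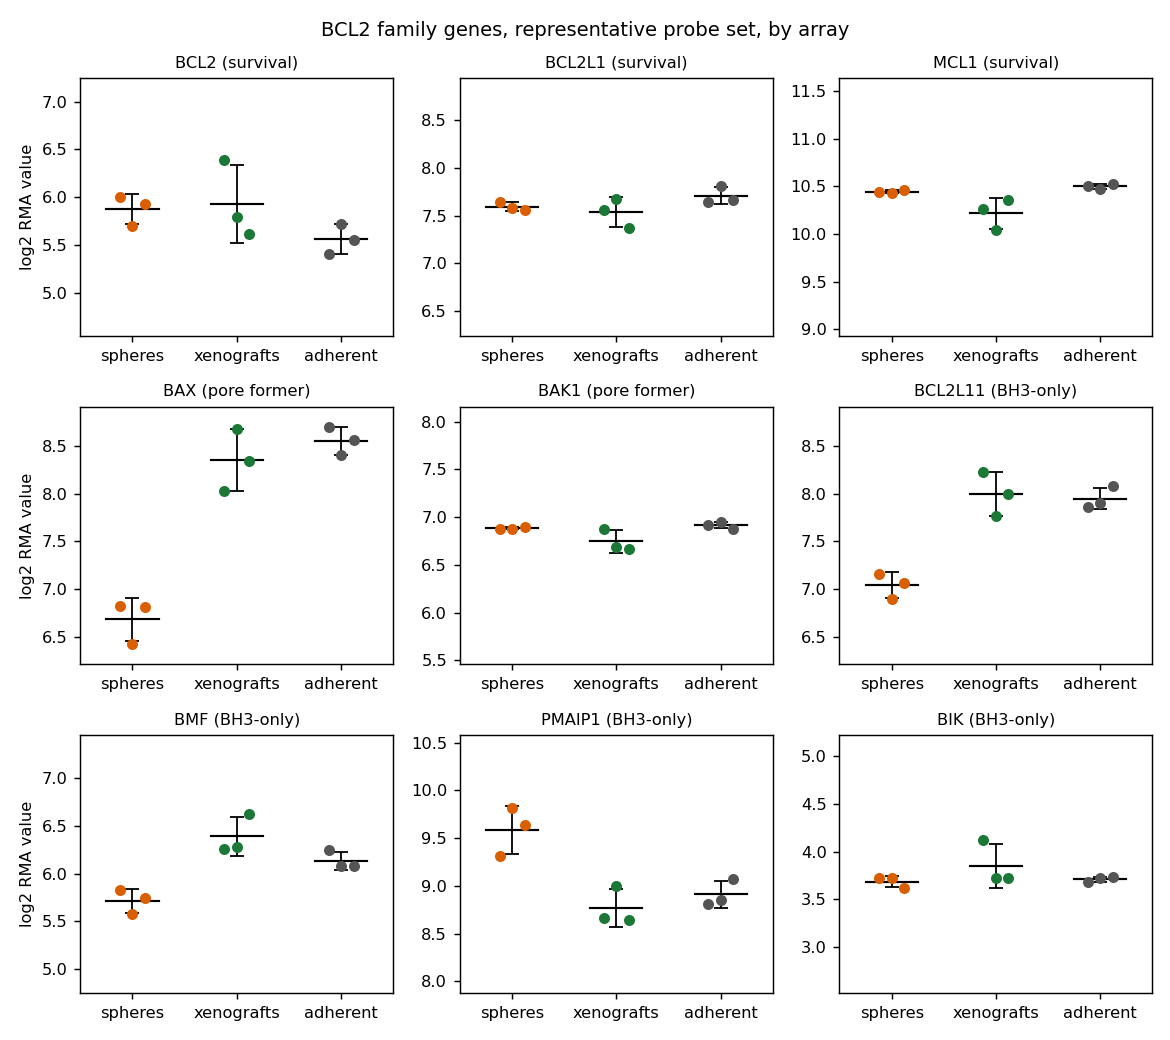
Log2 RMA value of the brightest probe set of each of the 9 genes, by array, for spheres, xenografts and adherent cells (points, arrays; horizontal line, mean; error bar, SD; n = 3 each; each panel has its own position on the y axis but the same span). BAX, BCL2L11 and BMF are lowest and PMAIP1 is highest in spheres, and BAK1, BCL2L1 and BIK stay within 0.17 log2 between group means.

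BCL2L11 encodes BIM, a BH3-only protein that can bind all the survival proteins and is a known target of FOXO factors. Its brightest probe set, 225606_at, read 7.16, 6.89 and 7.07 in spheres, 8.23, 7.76 and 8.001 in xenografts and 7.86, 7.90 and 8.08 in adherent cells. Every sphere array was below every array of the other groups, and xenografts and adherent cells overlapped. In spheres it fell by 0.91 against adherent cells, a 1.88-fold lower level (SE 0.13, adjusted p = 2.3e-04). None of the other 6 BCL2L11 probe sets passed in this comparison. Changes were negative at 1558143_a_at (-0.17) and 1553088_a_at (-0.18). They were positive at 1553096_s_at (0.25), 222343_at (0.19), 1555372_at (0.21) and 208536_s_at (0.05). The mean of all 7 probe sets changed by -0.08 and did not pass (adjusted p = 0.60), so the lower level in spheres rests on 1 probe set.

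BMF encodes a BH3-only protein that is held on the cytoskeleton and freed when cells lose their attachment. It read 5.83, 5.57 and 5.74 in spheres, 6.26, 6.28 and 6.62 in xenografts and 6.24, 6.07 and 6.08 in adherent cells at 226530_at. The order was xenografts, adherent cells, spheres, and no group overlapped another. In spheres BMF fell by 0.42 against adherent cells (SE 0.12, adjusted p = 0.021). This call was lost when adherent replicate 1 (adjusted p = 0.089), spheres replicate 2 (0.090) or spheres replicate 3 (0.052) was left out, with changes of -0.36, -0.35 and -0.43.

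PMAIP1 encodes NOXA, the BH3-only protein that binds MCL1, and its gene is induced by p53 and by ATF4. At 204285_s_at it read 9.32, 9.81 and 9.64 in spheres, 8.67, 9.0 and 8.64 in xenografts and 8.81, 8.85 and 9.07 in adherent cells. Spheres were above both other groups on all arrays, and the other two groups overlapped. PMAIP1 rose 1.60-fold in spheres against adherent cells (log2 change 0.68, SE 0.14, adjusted p = 0.0039). The second PMAIP1 probe set, 204286_s_at, read 7.48, 7.88 and 7.73 in spheres, 7.29, 7.40 and 6.89 in xenografts and 6.98, 7.17 and 7.29 in adherent cells. It gave a change of 0.55 in spheres against adherent cells (SE 0.15, adjusted p = 0.016), a call that was lost without adherent replicate 1, spheres replicate 2 or spheres replicate 3 (adjusted p = 0.074, 0.074 and 0.055). Under the methods' t-test with adjustment, neither PMAIP1 probe set passed (adjusted p = 0.062 and 0.074).

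BIK, a BH3-only protein of the endoplasmic reticulum, was dim. Its probe set 205780_at read 3.72, 3.72 and 3.62 in spheres, 4.12, 3.72 and 3.72 in xenografts and 3.68, 3.72 and 3.73 in adherent cells, below the median of every array. At a signal this low its level is uncertain, and its changes of -0.02 in spheres and 0.14 in xenografts against adherent cells did not pass. BBC3 encodes PUMA, which p53 induces. The probe set it shares with MIR3190 and MIR3191, 211692_s_at, read 6.25, 6.22 and 6.16 in spheres, 5.94, 6.14 and 6.49 in xenografts and 6.14, 6.03 and 6.30 in adherent cells. The groups overlapped, with changes of 0.05 in spheres (adjusted p = 0.86) and 0.03 in xenografts (0.88) against adherent cells.

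The 3 survival genes did not pass the test in spheres at any of their 14 probe sets, where 26% of all probe sets passed in either direction. Of the 14, 207005_s_at, 206665_s_at, 215037_s_at, 227175_at and 200796_s_at lay below the median of every array. BCL2, the founding member, read 5.998, 5.70 and 5.93 in spheres, 6.39, 5.79 and 5.61 in xenografts and 5.40, 5.72 and 5.56 in adherent cells at 203685_at. All groups overlapped, and the change in spheres was 0.32 (95% interval -0.07 to 0.70, adjusted p = 0.25). BCL2L1 read 7.65, 7.58 and 7.56 in spheres, 7.56, 7.68 and 7.37 in xenografts and 7.65, 7.81 and 7.67 in adherent cells at 212312_at, a change of -0.11 in spheres (95% interval -0.34 to 0.11, adjusted p = 0.50). The long and short splice forms of BCL2L1 encode proteins that act in opposite ways, and whether any probe set separates them was not determined.

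MCL1, a short-lived survival protein and the partner of NOXA, was represented by 200797_s_at, which read 10.44, 10.43 and 10.46 in spheres, 10.26, 10.04 and 10.35 in xenografts and 10.51, 10.47 and 10.52 in adherent cells. Spheres were below adherent cells on every array, but by only 0.06 (95% interval -0.27 to 0.16, adjusted p = 0.76). At the other MCL1 probe sets the changes in spheres ran between -0.33 and -0.07, none past the test, with the lowest adjusted p at 214057_at (0.071).

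In xenografts, few member probe sets differed from adherent cells, and those that did were not the brightest of their genes. Of the 28 probe sets, 3 rose (1 of BCL2L1 and 2 of BCL2L11) and 1 fell (of MCL1), against 9.78% and 13.2% of all probe sets. With each array centred on its median, 2 rose and 3 fell, against 3761 and 8247 of all probe sets in place of 5343 and 7218. Without adherent replicate 2, 2 of the 28 passed, and the count over all probe sets fell as well, from 12561 to 8057. With each gene at its brightest probe set, 0 of 9 genes rose and 0 fell by limma, against 12.6% and 14.3% of all genes. The methods' t-test with adjustment called 0 of the 9 as well. At an unadjusted p under 0.05 limma would have called 1 of the 9 genes, against 41.1% of all genes. That gene was MCL1, with a change of -0.28 (95% interval -0.50 to -0.07, adjusted p = 0.056). Of 20 alternatives, 6 called it, and its change ran between -0.35 and -0.010 over them. The other MCL1 probe sets went both ways, with -0.41 at 214057_at, 0.30 at 200798_x_at, 0.18 at 214056_at, 0.10 at 227175_at and 0.05 at 200796_s_at. The median change of the 9 genes was -0.14, against 0.08 for all genes.

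The probe sets that passed in xenografts against adherent cells moved by under 0.5 log2. BCL2L1 231228_at read 6.19, 6.22 and 6.22 in xenografts and 5.88, 5.77 and 5.93 in adherent cells, a change of 0.34 (SE 0.09, adjusted p = 0.016) that lost its call without adherent replicate 2 (adjusted p = 0.075). BCL2L11 1553096_s_at read 6.48, 6.33 and 6.28 in xenografts and 5.92, 5.90 and 5.81 in adherent cells, a change of 0.49 (SE 0.09, adjusted p = 0.0035). BCL2L11 1555372_at changed by 0.49 as well (adjusted p = 0.041), but its call was lost under 15 of 18 alternatives, and without adherent replicate 2 the change was 0.28. MCL1 214057_at read 6.22, 5.98 and 6.21 in xenografts and 6.56, 6.57 and 6.50 in adherent cells, a change of -0.41 (SE 0.10, adjusted p = 0.011) that the methods' t-test with adjustment did not call (adjusted p = 0.065). The brightest probe sets of BCL2L1 and BCL2L11 gave -0.17 (adjusted p = 0.24) and 0.05 (0.82) in the same comparison.

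BAX and PMAIP1 showed no change past the test in xenografts against adherent cells. The BAX changes were -0.20 at 211833_s_at (95% interval -0.56 to 0.16, adjusted p = 0.39) and -0.27 at 208478_s_at (-0.56 to 0.01, adjusted p = 0.15). PMAIP1 gave -0.14 (95% interval -0.46 to 0.18, adjusted p = 0.51) at 204285_s_at and 0.05 (-0.28 to 0.37) at 204286_s_at. BMF gave 0.26 (95% interval -0.0045 to 0.52, adjusted p = 0.14), and its 3 xenograft arrays all lay above the adherent arrays. Xenograft and adherent arrays did not overlap at 9 of the 28 member probe sets, against 38.5% of all probe sets. BCL2 gave 0.37 (95% interval -0.02 to 0.76, adjusted p = 0.16) and BAK1 -0.17 (-0.36 to 0.03, adjusted p = 0.20).

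Set directly against spheres, xenografts had more RNA of BAX, BCL2L11 and BMF and less of PMAIP1. Of the 28 probe sets, 9 rose and 3 fell in xenografts, against 20.6% and 18.5% of all probe sets, and of the 9 genes 3 rose and 1 fell, against 25.7% and 18.3% of all genes. The median change of the 9 genes was 0.05, against 0.13 for all genes. Xenograft and sphere arrays did not overlap at 15 of the 28 probe sets, against 47.4% of all probe sets. This comparison uses the sphere and xenograft arrays that also enter the comparisons with adherent cells, and those share the adherent arrays, so the 3 sets of values are not independent of each other. BAX was 3.17-fold higher in xenografts at 211833_s_at (log2 change 1.67, SE 0.16, adjusted p = 1.4e-05) and 2.45-fold higher at 208478_s_at (1.29, SE 0.13, adjusted p = 1.6e-05). BCL2L11 was 1.94-fold higher at 225606_at (0.95, SE 0.13, adjusted p = 1.2e-04), and BMF 1.60-fold higher (0.67, SE 0.12, adjusted p = 9.1e-04). PMAIP1 fell by 0.82 at 204285_s_at (SE 0.14, adjusted p = 8.9e-04) and by 0.50 at 204286_s_at (adjusted p = 0.019), and the methods' t-test with adjustment kept neither (adjusted p = 0.056 and 0.15). The call at 204286_s_at was lost under 7 of 19 alternatives, among them quantile normalization (adjusted p = 0.080) and leaving out spheres replicate 2, spheres replicate 3 or xenografts replicate 3 (0.079, 0.060 and 0.066).

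Probe sets of MCL1 and of BCL2L11 disagreed with each other in this comparison. MCL1 200798_x_at read 9.46, 9.07 and 8.94 in xenografts and 8.42, 8.60 and 8.60 in spheres. It changed by 0.62 (SE 0.13, adjusted p = 0.0037), and 214056_at changed by 0.51 (adjusted p = 0.012). Neither passed the methods' t-test with adjustment (adjusted p = 0.080 and 0.14), and 214056_at did not pass it without (unadjusted p = 0.052). The brightest MCL1 probe set, 200797_s_at, changed by -0.23 (95% interval -0.44 to -0.01, adjusted p = 0.084), in the opposite direction. For BCL2L11, 225606_at, 1553088_a_at (0.51, adjusted p = 0.0040) and 1558143_a_at (0.39, adjusted p = 0.032) rose, and 208536_s_at, its dimmest, fell by 0.34 (adjusted p = 0.022). The call at 1553088_a_at was lost under the methods' t-test with adjustment (adjusted p = 0.070). The call at 1558143_a_at was lost under 10 of 19 alternatives and that at 208536_s_at under 5 of 18, among them leaving out spheres replicate 2 (adjusted p = 0.087 and 0.081). BCL2L1 231228_at rose by 0.47 in xenografts against spheres (SE 0.09, adjusted p = 0.0014), while 212312_at gave -0.06 (adjusted p = 0.67). Which transcripts each probe set reads was not determined here.

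**Figure D4:**
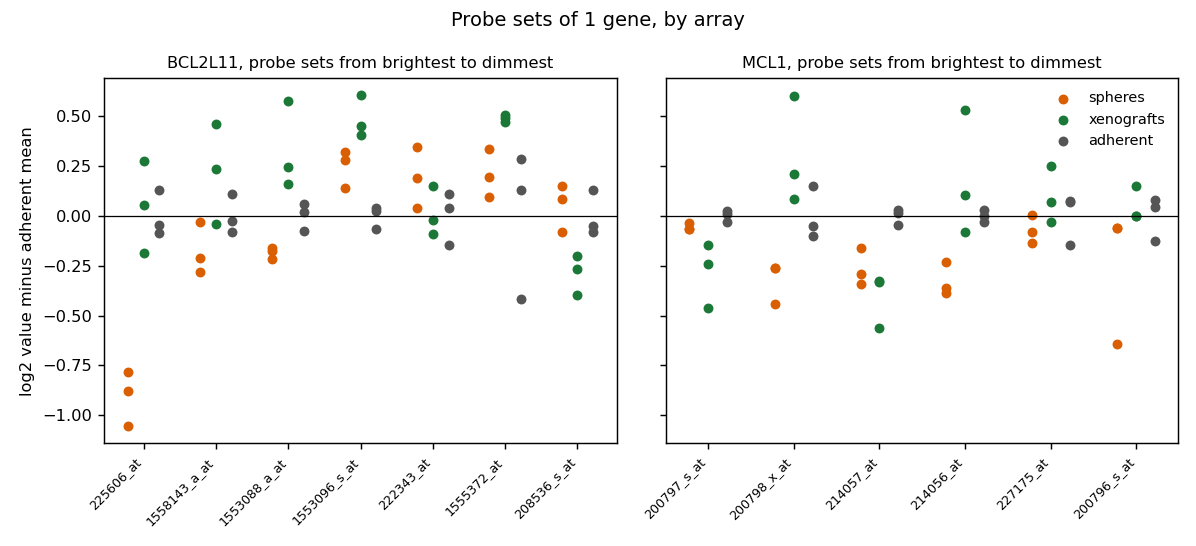
Log2 value minus the mean of the adherent arrays for each probe set of BCL2L11 and MCL1, ordered along the x axis from brightest to dimmest, with 1 point per array of spheres, xenografts and adherent cells. The sphere arrays of BCL2L11 drop by more than 0.75 at 225606_at alone, and the xenograft arrays of MCL1 lie above the sphere arrays at 200798_x_at but below them at 200797_s_at.

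The genes whose representative probe set followed BAX most closely over the 9 arrays were ALG14 (Pearson r = 0.994) and TTYH2 (0.993), out of 19775 genes. For BCL2L11 at 225606_at they were ZSCAN16 (0.996) and TPRG1L (0.992), and for PMAIP1 at 204285_s_at NBEAL1 (0.981) and IMPA1 (0.978). These correlations describe 9 arrays in 3 groups, and for each of these genes the sphere mean lay apart from both other means.

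Of 24 other BCL2 family and related genes, 6 rose and 5 fell in spheres against adherent cells, where 13.5% of all genes rose and 16.3% fell. BNIP3 and BNIP3L, mitophagy receptors with a BH3-like stretch, rose by 1.25 (SE 0.12) and 0.71 (SE 0.13), to 10.05 and 10.64 in spheres against 8.81 and 9.93 in adherent cells. BCL2L13 rose by 0.91 (SE 0.15, adjusted p = 7.9e-04). BID, the BH3-only protein that caspase 8 cleaves, averaged 7.496 in spheres and 8.41 in adherent cells and fell by 0.91 (SE 0.09, adjusted p = 2.1e-05). In xenografts against adherent cells, 3 of the 24 rose and 3 fell (12.6% and 14.3% of all genes), with BNIP3 at 2.03 (SE 0.12), TMBIM6, known as BAX inhibitor 1, at 0.63, BCL2L10, a survival homologue, at 0.76 and the chaperone partner BAG3 at -0.80 (adjusted p = 0.048). Xenografts against spheres had 6 higher and 3 lower (25.7% and 18.3% of all genes), among them BID at 0.92, BAG3 at -1.37, BCL2L13 at -0.89 and BNIP3 at 0.78. In the comparisons of xenografts these counts lie near those shares.

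Downstream of the mitochondrion, 4 of 21 genes of the apoptosome, the caspases and their inhibitors rose and 6 fell in spheres against adherent cells (13.5% and 16.3% of all genes). CASP8, the caspase that death receptors start, rose by 0.94 (SE 0.11). DFFB, the nuclease that cuts DNA in apoptosis, fell by 1.37 (SE 0.13), and the inhibitor BIRC5, also a mitotic protein, and ENDOG, a mitochondrial nuclease, fell by 0.86 and 0.77. In xenografts 0 of 21 rose and 8 fell against adherent cells (12.6% and 14.3% of all genes), led by the mitochondrial flavoprotein AIFM1 at -0.74, the apoptosome scaffold APAF1 at -0.73, the initiator CASP9 at -0.73 and CFLAR, which blocks caspase 8, at -0.59. Against spheres, xenografts had 4 higher and 8 lower (25.7% and 18.3% of all genes), with DFFB at 1.68, CASP8 at -1.08, ENDOG at 0.92 and XIAP, a direct caspase inhibitor, at -0.78.

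The death receptors FAS, TNFRSF10B and TNFRSF1A rose in spheres and fell in xenografts against adherent cells, while 7 of the 11 receptors, ligands and adaptors measured did not pass in each of these comparisons. In spheres 3 rose and 1 fell (13.5% and 16.3% of all genes), with FAS at 1.45 (SE 0.26), the TRAIL receptor TNFRSF10B at 1.10 (SE 0.10), the TNF receptor TNFRSF1A at 0.71 and the adaptor FADD at -0.68. In xenografts 1 rose and 3 fell against adherent cells (12.6% and 14.3% of all genes), with FAS at -1.10, TNFRSF10B at -0.77, TNFRSF1A at -0.61 and the decoy receptor TNFRSF10C at 0.43. The direct comparison of xenografts against spheres gave 2 higher and 3 lower (25.7% and 18.3% of all genes), with FAS at -2.55, TNFRSF10B at -1.87, TNFRSF1A at -1.32 (adjusted p = 1.5e-06) and FADD at 0.42. FAS averaged 5.63 in spheres, 3.09 in xenografts and 4.18 in adherent cells, and only the sphere mean was above the array medians.

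The p53 list, which holds regulators of p53 and genes it can induce, was mixed in spheres. Of 19 genes, 5 rose and 8 fell against adherent cells (13.5% and 16.3% of all genes), and the changes named here are SESN2 at 2.27 (SE 0.24), TIGAR at -1.50 (SE 0.09), PERP at 1.30 and TP73, a homologue of p53, at -1.21. SESN2 is also an ATF4 target and counts in both lists. In xenografts 1 rose and 10 fell against adherent cells (12.6% and 14.3% of all genes), a median of -0.39 against 0.08 for all genes, with the cell cycle inhibitor CDKN1A at -2.03 (SE 0.11), PERP at -1.86, ZMAT3 at -0.91 and TP53I3 at 1.09. Against spheres, xenografts had 7 higher and 7 lower (25.7% and 18.3% of all genes), with PERP at -3.16, CDKN1A at -2.68, SESN2 at -1.91 and MDM4, an inhibitor of p53, at -1.44.

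Stress genes of ATF4 and CHOP, factors known to induce PMAIP1 and TNFRSF10B among others, had the largest share of changes among the 6 lists in spheres. Of 17 genes, 15 rose and 0 fell against adherent cells (13.5% and 16.3% of all genes), a median of 1.68 against -0.04 for all genes. TRIB3 rose by 3.18 (SE 0.15), ATF5 by 3.10 (SE 0.13), DDIT3, which encodes CHOP, by 3.01 (SE 0.17) and CEBPB by 2.91 (SE 0.20). In xenografts 6 of 17 rose and 0 fell against adherent cells (12.6% and 14.3% of all genes), a median of 0.30, with DDIT4 at 1.85, CHAC1 at 1.30, DDIT3 at 1.19 and VLDLR at 0.71. Xenografts against spheres had 1 higher and 16 lower (25.7% and 18.3% of all genes), with ATF5 at -2.94, TRIB3 at -2.67, PPP1R15A at -2.51 and CEBPB at -2.44.

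Among 21 regulators that act on BCL2 family proteins or on FOXO factors, 2 rose and 6 fell in spheres against adherent cells (13.5% and 16.3% of all genes). MYC, which can sensitise cells to apoptosis, rose by 1.16 (SE 0.10), and E2F1, the ubiquitin ligase subunit BTRC and the survival kinase AKT1 fell by 1.06, 0.95 and 0.83. FOXO1 averaged 8.07 in spheres and 8.60 in adherent cells, a change of -0.53 (adjusted p = 0.0018), and part of its sequence is in the fusion gene that Rh30 carries. In xenografts 4 rose and 5 fell against adherent cells (12.6% and 14.3% of all genes), with BTRC at -0.82, GSK3B, a kinase that marks MCL1 for degradation, at -0.81, FOXO1 at -0.56 and the deubiquitinase USP9X, which stabilises MCL1, at -0.53; without adherent replicate 3 the count was 5 in place of 9. Xenografts against spheres had 6 higher and 4 lower (25.7% and 18.3% of all genes), with E2F1 at 1.18, MYC at -0.85, MYCN at 0.69 and FBXW7 at -0.65.

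**Figure D5:**
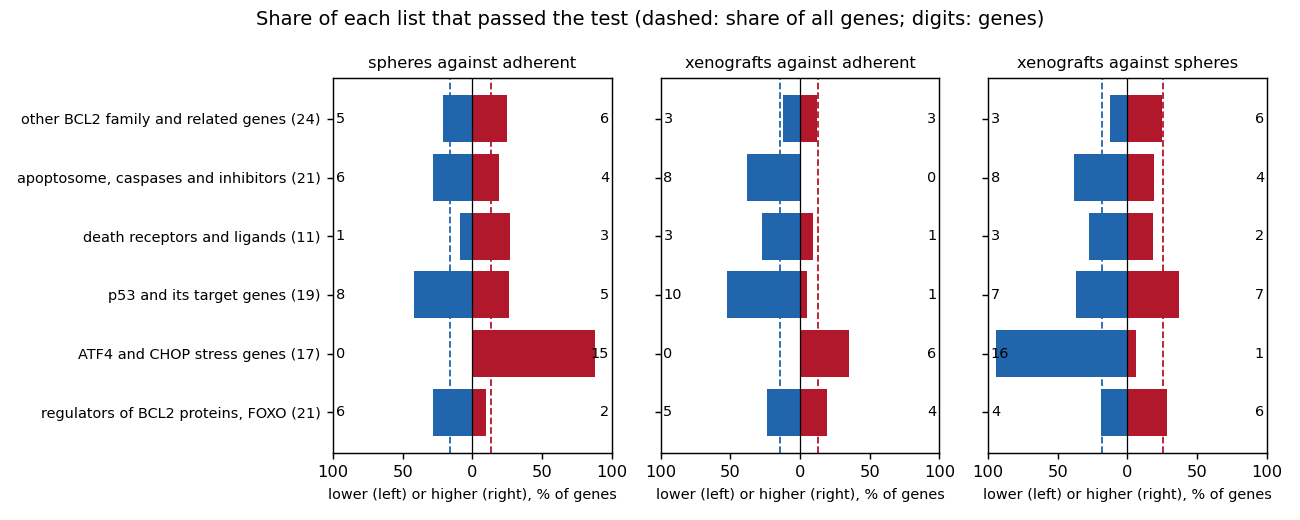
Share of the measured genes of each list that passed the test (x axis, percent of genes; lower to the left in blue, higher to the right in red; digits, number of genes; dashed lines, share of all 19775 genes) in the 3 comparisons. The ATF4 and CHOP list has 15 of 17 genes higher in spheres than in adherent cells and 16 of 17 lower in xenografts than in spheres.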

How the data were processed

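Affymetrix U133 Plus 2.0 arrays of Rh30 spheres, xenografts and adherent cells (3 each) were used. RMA was run by the authors on all arrays at once, and the deposited values are log2 intensities per probe set, which RMA has corrected for background, brought to a common distribution and summarised. The version of RMA is not given in the sources used here. RMA compresses the changes of dim probe sets, and the number of arrays limits the precision.

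After 62 control probe sets were set aside, 54613 entered 1 linear model with a mean for each group (limma 3.58.1, R 4.3.3; all 9 arrays, 6 residual degrees of freedom, moderated by eBayes). P-values were adjusted by Benjamini-Hochberg over every probe set tested, 0.05 was the threshold, and intervals are at 95%. Symbols came from the array annotation, in which 41091 probe sets had 1 symbol, 1801 several and 11721 none. For each of 19775 genes, the probe set brightest on average over the 9 arrays was taken as its representative. Changes were tested between groups at 1 probe set at a time, and brightness was compared between the probe sets of a gene only to choose its representative and to order them.

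The members and the gene lists were chosen with earlier results of these data known, so they are described by counts beside those of all genes. All members are given, and up to 4 genes that passed are named per list and comparison, those with the largest change; FOXO1 in spheres was named after its value was seen. Upstream windows came from the RefSeq table for GRCh38.p14 and were searched on both strands. Simulated arrays with known changes were used to test the fit. The alternatives were quantile normalization, median centring, brighter probe sets alone, a fit without the third group, robust estimation with a variance trend, weights per array, a block for the replicate number, the methods' t-test (an unpaired t-test that the methods name in general and not for the arrays, run with and without a Benjamini-Hochberg adjustment added here), a 2-fold minimum, leaving out each array, leaving out the _x_at and _s_at types, and averaging the probe sets of a gene. Replicate numbers did not pair arrays across groups.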

Additional observations from a re-analysis of the deposited data

How the results depend on the processing

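Among the counts of changed member probe sets, those in spheres against adherent cells (6) became 12 with array weights, 12 under the methods' t-test without adjustment, 2 with an added 2-fold threshold, 2 without the _x_at and _s_at types, and 4 to 8 when each array was left out. For array weights and the unadjusted t-test, the counts over all probe sets are not given here. The rise to 12 is therefore not read as particular to the members. The count in xenografts against adherent cells (4) became 2 under the methods' t-test with adjustment, 0 with an added 2-fold threshold, and 2 to 4 when each array was left out, with 2 without adherent replicate 2. The count in xenografts against spheres (12) became 5 under the methods' t-test with adjustment, 2 with the 2-fold threshold, 6 without the _x_at and _s_at types, and 10 to 13 when each array was left out. The cause was not tested, except that the 2-fold threshold and the removal of probe sets can only lower a count.

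Over all probe sets, the 2-fold threshold left 3019 changed in spheres against adherent cells, 1507 in xenografts against adherent cells and 3957 in xenografts against spheres. The methods' t-test with adjustment gave 4826 and 10414 in the comparisons of xenografts with adherent cells and with spheres. Leaving out each array gave 11391 to 15595 in spheres against adherent cells, 8057 to 13825 in xenografts against adherent cells (8057 without adherent replicate 2) and 15906 to 21775 in xenografts against spheres. With each array centred on its median, 3761 probe sets were higher and 8247 lower in xenografts against adherent cells, 31.3% higher, against 5343 and 7218, or 42.5%, without centring.

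Over the member changes that passed the test, 174 repeats with an array left out kept the call and 24 lost it, and 183 kept and 43 lost it under the other alternatives. Direction turned only for values that had not passed the test. In spheres against adherent cells, BIK gave -0.041 to 0.011 when each array was left out, the higher without spheres replicate 3. In xenografts against adherent cells, BCL2L1 gave 0.058 as the mean of its probe sets, PMAIP1 8.2e-04 after quantile normalization, and BCL2L11 -0.0041 after median centring, -0.040 with array weights and -0.067 to 0.16 when each array was left out (-0.067 without xenografts replicate 1). In xenografts against spheres, BCL2 gave -0.0048 with array weights, -0.034 without spheres replicate 2, -0.17 to 0.21 over the arrays left out (-0.17 without xenografts replicate 1) and -0.020 as the mean of its probe sets. BCL2L1 gave 0.088 after quantile normalization, -0.13 to 0.026 when each array was left out (0.026 without xenografts replicate 3) and 0.12 as the mean of its probe sets, MCL1 gave 0.21 as the mean of its probe sets and BAK1 gave 0.033 after quantile normalization. BIK was too dim for the filter on dim probe sets.

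With the replicate number as a block, 6, 3 and 11 member probe sets passed in the 3 comparisons and 13562, 11273 and 20294 of all probe sets. The same-numbered arrays of different groups deviated together in 2 of 9 pairs only (r -0.18 to 0.18), and 2 of 9 arrays were closest to an array of their own number in another group, so the block is not read as a pairing.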
